A study of Homo sapiens with 6 samples.

Results

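The genes described here encode the enzymes that copy nuclear DNA: DNA polymerase alpha and its primase (POLA1, POLA2, PRIM1, PRIM2), DNA polymerase delta (POLD1, POLD2, POLD3), DNA polymerase epsilon (POLE, POLE2) and the sliding clamp PCNA. The members are a family taken by gene symbol, drawn up with earlier results of these data known, and all 10 were found among the 30618 genes with counts and among the 30275 genes with FPKM (fragment counts scaled by gene length and by mapped fragments). RNA-seq was performed in the human cell line ARPE-19, which derives from retinal pigment epithelium, kept in 50 mM glucose as a model of diabetic retinopathy. Cells that received a control siRNA (NC group) were compared with cells that received an siRNA against EIF1, a translation initiation factor that takes part in start codon choice (siEIF1 group), with 3 biological replicates in each group. Both groups were in high glucose, so no library shows the members at normal glucose. The study's methods state a harvest time after transfection for RT-qPCR and western blotting, without naming the RNA-seq libraries.

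A replication fork needs several polymerases because none of them can both start a strand and copy a whole chromosome. Primase lays down a short RNA primer, polymerase alpha extends it with a short stretch of DNA, and polymerase epsilon on the leading strand and polymerase delta on the lagging strand then take over. PCNA is a ring that encircles DNA, tethers polymerase delta to it, and serves as a platform for repair and ligation enzymes. Transcription of many of these genes is known to peak around the start of S phase, under E2F transcription factors, and PCNA protein is widely used as a marker of cycling cells.

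The 6 libraries held between 26499929 and 31431479 counts. EIF1 itself was listed at 294.35, 281.08 and 281.28 FPKM in the NC group and at 24.28, 22.68 and 23.50 FPKM in the siEIF1 group, a log2 fold change of -3.58 (SE 0.055, edgeR adjusted p = 1.08e-13), so the libraries matched their labels. Of the retinal pigment epithelium markers, OTX2 (17.51 to 19.18 FPKM), MITF (5.46 to 5.89) and BEST1 (38.79 to 70.79) were present, whereas RLBP1 reached at most 0.73, PMEL 0.32 and TYR 0.02 FPKM. RPE65, also on this marker list, was not among the genes with counts. BEST1 overlaps the abundant FTH1 gene on the opposite strand, and the strand setting of the counting was not given in the sources used here. The keratins KRT8 and KRT18 lay above 106 FPKM in each library. Of the 11 markers of mesenchyme, endothelium, leukocytes, photoreceptors and glia analysed here, 10 had at most 18 counts in any library, and PDGFRB was at 6.40 to 9.05 FPKM in the NC group and 10.96 to 13.29 FPKM in the siEIF1 group.

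Expression of the replicative polymerase genes was lower in the siEIF1 group. At an adjusted p under 0.05, 9 of the 10 members fell and 0 rose (edgeR quasi-likelihood test, adjusted over 16749 tested genes). The background over all tested genes was 10.4% that fell and 10.2% that rose. The limits of the study's methods, which also ask for a fold change below 0.5, were passed by 2 members, POLE2 and PRIM1, against 1.31% of all tested genes. In 9 members the 3 siEIF1 libraries all lay below the 3 NC libraries in CPM (counts scaled to library size by TMM, the trimmed mean of M values), a pattern seen in 18.9% of all tested genes. The median log2 fold change of the members was -0.61, beside 0.0033 over all tested genes. POLD2 was the member that did not pass the test. In these bulk libraries, fewer cells in S phase and less of each mRNA per cell cannot be told apart, and the 6 proliferation markers fixed for comparison moved in the same direction: their summed level was 95.6 to 108 CPM in the NC group and 38.1 to 39.5 in the siEIF1 group. Their part in the members' change was not tested.

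**Figure D1:**
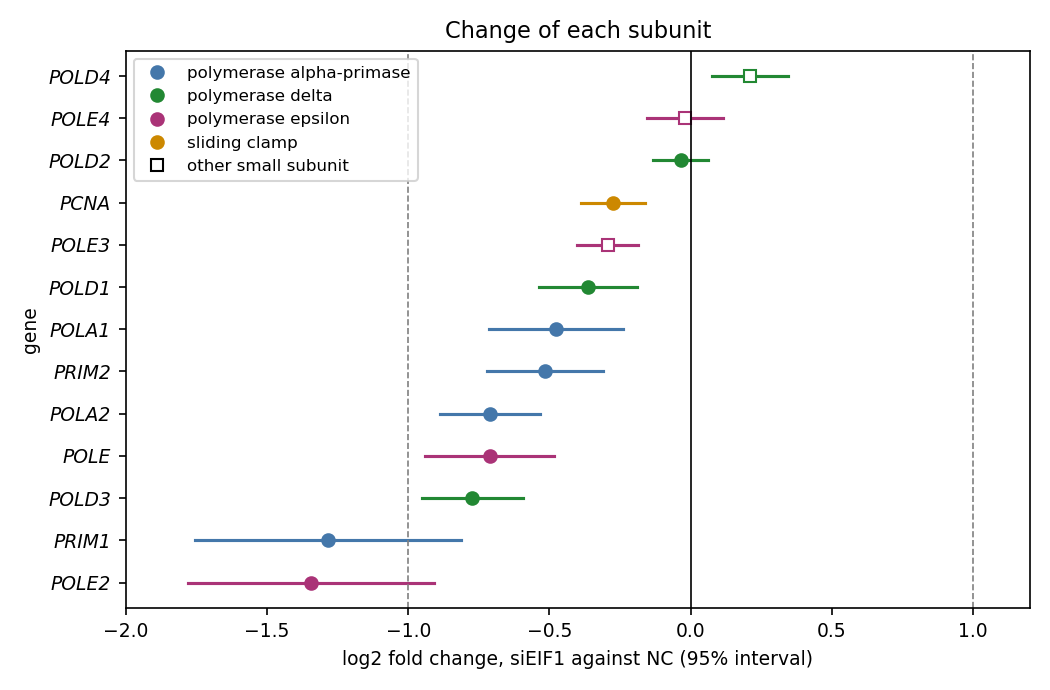
Log2 fold change of each member and of 3 further small subunits in the siEIF1 group against the NC group, with 95% intervals from the edgeR fit as horizontal bars. Of the 10 members, POLE2 (-1.34) and PRIM1 (-1.28) lie farthest to the left and POLD2 (-0.036) lies closest to 0. Dashed lines mark a log2 fold change of -1 and 1.

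The promoters of 9 members were found in the RefSeq promoter sequences (GRCh38.p14). Each spans 250 bases before to 50 bases after a transcript start, the one nearest the start of the gene's canonical transcript. That start can lie inside the gene limits given below, as in POLD2. Of these promoters, 4 are printed because they span the range of response. POLE2 and PRIM1 had the largest falls, POLE is the catalytic partner of POLE2, and POLD2 did not pass the test. Each runs 5′ to 3′ on the gene's own strand, all of them on the reverse strand of the chromosome. Capitals mark, on either strand, a CCAAT box (CCAAT) or 1 of 4 spellings of the E2F site (TTTCCCGC, TTTCGCGC, TTTGCCGC, TTTGGCGC). The printed stretches are POLE2 at chr14:49688165-49688464, PRIM1 at chr12:56752274-56752573, POLE at chr12:132687293-132687592 and POLD2 at chr7:44123499-44123798.
POLE2: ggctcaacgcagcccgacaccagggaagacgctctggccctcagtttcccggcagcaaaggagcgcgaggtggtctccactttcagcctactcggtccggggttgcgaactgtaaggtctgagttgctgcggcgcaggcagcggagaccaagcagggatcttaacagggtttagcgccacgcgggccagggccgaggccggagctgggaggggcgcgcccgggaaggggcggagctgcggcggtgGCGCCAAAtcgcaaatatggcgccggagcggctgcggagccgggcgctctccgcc
PRIM1: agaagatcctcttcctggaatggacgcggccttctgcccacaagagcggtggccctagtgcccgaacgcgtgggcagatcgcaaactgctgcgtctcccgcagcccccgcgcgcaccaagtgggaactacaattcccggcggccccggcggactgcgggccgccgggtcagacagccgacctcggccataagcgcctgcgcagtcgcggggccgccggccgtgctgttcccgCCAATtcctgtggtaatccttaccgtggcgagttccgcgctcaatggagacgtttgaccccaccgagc
POLE: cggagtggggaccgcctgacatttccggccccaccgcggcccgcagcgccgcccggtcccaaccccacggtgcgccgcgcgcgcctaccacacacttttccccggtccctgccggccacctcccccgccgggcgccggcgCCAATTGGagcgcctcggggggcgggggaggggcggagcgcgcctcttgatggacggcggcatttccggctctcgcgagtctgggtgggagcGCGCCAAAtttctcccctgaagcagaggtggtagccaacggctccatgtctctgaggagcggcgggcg
POLD2: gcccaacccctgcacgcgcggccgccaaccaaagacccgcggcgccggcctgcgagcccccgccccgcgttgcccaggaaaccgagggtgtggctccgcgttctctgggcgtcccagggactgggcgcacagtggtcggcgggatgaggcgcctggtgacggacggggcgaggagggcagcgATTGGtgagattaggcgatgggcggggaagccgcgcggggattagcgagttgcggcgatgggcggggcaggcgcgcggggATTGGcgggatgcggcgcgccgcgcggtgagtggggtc

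E2F letters were present in the promoters of 4 of the 9 matched members, POLA1, POLA2, POLE and POLE2, against 4.15% of all 19087 promoters and 5.38% of the 11217 promoters of tested genes. The first base of the match lay at -5 from that transcript start in POLE2, at -18 in POLE, at -53 in POLA2 and at -137 in POLA1. In POLE2, POLE and POLA1 the letters were TTTGGCGC read on the opposite strand, and in POLA2 they were TTTCGCGC on the gene's strand. PRIM1, which fell nearly as far as POLE2, held none of the 4 spellings in this window. Members with and without these letters both fell. Other spellings of the E2F site were not searched, so a promoter without these letters may still hold a site. A CCAAT box, the site of the factor NF-Y, was found in 5 of 9 (PCNA, POLA1, POLD2, POLE and PRIM1) against 36.2% of all promoters and 36.2% of those of tested genes. A GC box (GGGCGG) was found in 6 of 9, against 56.3% of all promoters and 72.8% of those of tested genes. The cell cycle homology region (CHR, TTTGAA) was found in 0 of 9, against 12.8% and 8.96%. All motifs were searched on both strands, in POLE a forward and a reverse CCAAT box overlap, and a match in these letters is a description of the sequence, not a binding site.

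DNA polymerase alpha and primase work as a single complex of 4 subunits, and each of the 4 genes fell. POLA1 encodes the catalytic polymerase subunit (chromosome X, 24693873 to 24996986, forward strand, 37 exons). It was listed at 0.48, 0.46 and 0.58 FPKM in the NC group and at 0.35, 0.33 and 0.40 FPKM in the siEIF1 group. The groups did not overlap, but NC replicate 3 was higher than the other NC libraries. The log2 fold change of POLA1 was -0.48 (SE 0.11, edgeR adjusted p = 0.00798). Without NC replicate 3 it was -0.38, with an adjusted p of 0.0501 in edgeR.

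POLA2 encodes the regulatory B subunit that holds POLA1 (chromosome 11, 65261913 to 65305959, forward strand, 18 exons). It was at 2.31, 2.14 and 2.10 FPKM in the NC group and at 1.28, 1.31 and 1.36 FPKM in the siEIF1 group, with replicates close together and a wide gap between the groups. Its log2 fold change was -0.71 (SE 0.081, edgeR adjusted p = 5.23e-05). Of the 75-base stretches in the canonical POLA2 transcript, 54.9% are shared with a transcript of the overlapping gene ENSG00000285816, so reads could have been split between them. That gene had a log2 fold change of -0.032 (edgeR adjusted p = 0.793).

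PRIM1 encodes the catalytic primase subunit, which makes the RNA primer (chromosome 12, 56730438 to 56752374, reverse strand, 13 exons). Its level was 0.88, 0.90 and 0.73 FPKM in the NC group and 0.45, 0.29 and 0.28 FPKM in the siEIF1 group, 40.6% of the NC mean. All 3 siEIF1 libraries were below the lowest NC library, and siEIF1 replicate 1 stood above the other siEIF1 libraries. These values rest on 82, 90 and 71 counts against 49, 30 and 29 counts, the fewest of any member. The log2 fold change of -1.28 therefore had a wide 95% interval, from -1.75 to -0.81 (edgeR adjusted p = 0.00105). PRIM1 shares 21.3% of its 75-base stretches with the overlapping gene ENSG00000285625, which also fell (log2 fold change -0.95, SE 0.20, edgeR adjusted p = 0.00445). Annotated PRIM1 exons also overlap NACA on the same strand over 139 bases, though the canonical PRIM1 transcript shares no 75-base stretch with it. NACA had 26440 to 31376 counts per library and a log2 fold change of 0.024 (edgeR adjusted p = 0.805).

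PRIM2 encodes the large primase subunit, which links PRIM1 to polymerase alpha and carries an iron-sulfur cluster (chromosome 6, 57314805 to 57646850, forward strand, 14 exons). It was listed at 1.56, 1.88 and 1.75 FPKM in the NC group and 1.24, 1.14 and 1.2 FPKM in the siEIF1 group. The siEIF1 libraries were close together and below each NC library. PRIM2 fell by 0.52 on the log2 scale (SE 0.095, edgeR adjusted p = 0.00185), and 18.7% of its 75-base stretches are shared with PRIM2BP and other copies, which leaves its count uncertain.

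The subunits of polymerase delta changed unequally. POLD1 encodes the catalytic subunit with its proofreading exonuclease (chromosome 19, 50384204 to 50418018, forward strand, 27 exons). Its level was 2.62, 2.88 and 2.88 FPKM in the NC group and 1.98, 2.14 and 2.32 FPKM in the siEIF1 group. The groups were separate, with a log2 fold change of -0.36 (SE 0.080, edgeR adjusted p = 0.00591). POLD1 shares 10.5% of its 75-base stretches with the overlapping gene ENSG00000142539, which is not analysed here.

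POLD2 encodes the subunit that bridges POLD1 and POLD3 (chromosome 7, 44114631 to 44124358, reverse strand, 11 exons). It was at 33.22, 34.35 and 34.33 FPKM in the NC group and at 32.71, 32.53 and 32.74 FPKM in the siEIF1 group. These FPKM values were separate by a small margin, whereas the CPM values overlapped. Its log2 fold change was -0.036, with a 95% interval from -0.13 to 0.060 (edgeR adjusted p = 0.630). With 3979 to 4628 counts in each library, POLD2 had the smallest standard error of the members (0.045).

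POLD3 encodes the accessory subunit that carries a PCNA-binding motif and is also shared with the translesion polymerase zeta (chromosome 11, 74493851 to 74669117, forward strand, 12 exons). Its level was 1.89, 1.86 and 1.90 FPKM in the NC group and 1.07, 1.06 and 1.13 FPKM in the siEIF1 group, 57.7% of the NC mean. The replicates of each group lay within 0.07 FPKM of each other. POLD3 fell by 0.77 on the log2 scale (SE 0.083, edgeR adjusted p = 2.97e-05), the smallest adjusted p among the members. POLD4, the smallest subunit and not a member, was at 17.98 to 19.60 FPKM in the NC group and 19.91 to 22.10 FPKM in the siEIF1 group, and it rose by 0.21 on the log2 scale (SE 0.063, edgeR adjusted p = 0.0300). Its CPM values overlapped between the groups, although its FPKM values did not, and in 4 of 6 fits that leave out a library its adjusted p was above 0.05, up to 0.141.

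Both measured members of polymerase epsilon fell. The estimated fall was larger for POLE2, but the exact permutation test of the POLE2/POLE ratio (p = 0.1, its smallest possible value) cannot decide this. POLE encodes the catalytic subunit of the leading-strand polymerase (chromosome 12, 132623753 to 132687376, reverse strand, 49 exons). It was listed at 0.91, 0.93 and 0.93 FPKM in the NC group and at 0.46, 0.54 and 0.67 FPKM in the siEIF1 group. The NC libraries were nearly equal, whereas siEIF1 replicate 3 was well above siEIF1 replicate 1, and the groups did not overlap. POLE had a log2 fold change of -0.71 (SE 0.11, edgeR adjusted p = 3.91e-04).

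POLE2 encodes the B subunit of polymerase epsilon, which joins POLE to the GINS part of the replicative helicase (chromosome 14, 49643555 to 49688422, reverse strand, 19 exons). Its level was 0.94, 0.83 and 0.86 FPKM in the NC group and 0.34, 0.25 and 0.43 FPKM in the siEIF1 group, 38.8% of the NC mean. All siEIF1 libraries were below all NC libraries. Counts were 90, 86 and 87 against 39, 27 and 46. The log2 fold change was -1.34, with a 95% interval from -1.78 to -0.91 (edgeR adjusted p = 4.31e-04). The intervals of POLE2 and PRIM1 both reached above -1, so a fold change of less than 2 was not excluded for either.

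The histone-fold subunits POLE3 and POLE4, which are not members, pair with each other in the complex. POLE3, which also serves in the chromatin remodelling complex CHRAC, was at 18.96, 18.21 and 18.58 FPKM in the NC group and 15.18, 14.74 and 14.90 FPKM in the siEIF1 group (log2 fold change -0.29, SE 0.050, edgeR adjusted p = 0.00105). POLE4 was at 16.42 to 16.89 FPKM against 15.55 to 17.14 FPKM, a log2 fold change of -0.020 with a 95% interval from -0.15 to 0.11 (edgeR adjusted p = 0.862).

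PCNA (chromosome 20, 5114953 to 5126626, reverse strand, 6 exons) fell by a small but well-measured amount. It was at 68.81, 66.83 and 65.49 FPKM in the NC group and at 54.45, 56.31 and 52.89 FPKM in the siEIF1 group. The lowest NC library was above the highest siEIF1 library by more than the spread within either group. The log2 fold change was -0.28 (SE 0.053, edgeR adjusted p = 0.00226), 81.4% of the NC mean in FPKM. In absolute terms this was the largest loss among the members, 12.5 FPKM. It had 2682 to 3287 counts in each library. PCNA and POLD2 had the highest mean counts of the members, 2 members, PRIM1 and POLE2, had mean counts under 100, and the other 6 lay in between.

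**Figure D2:**
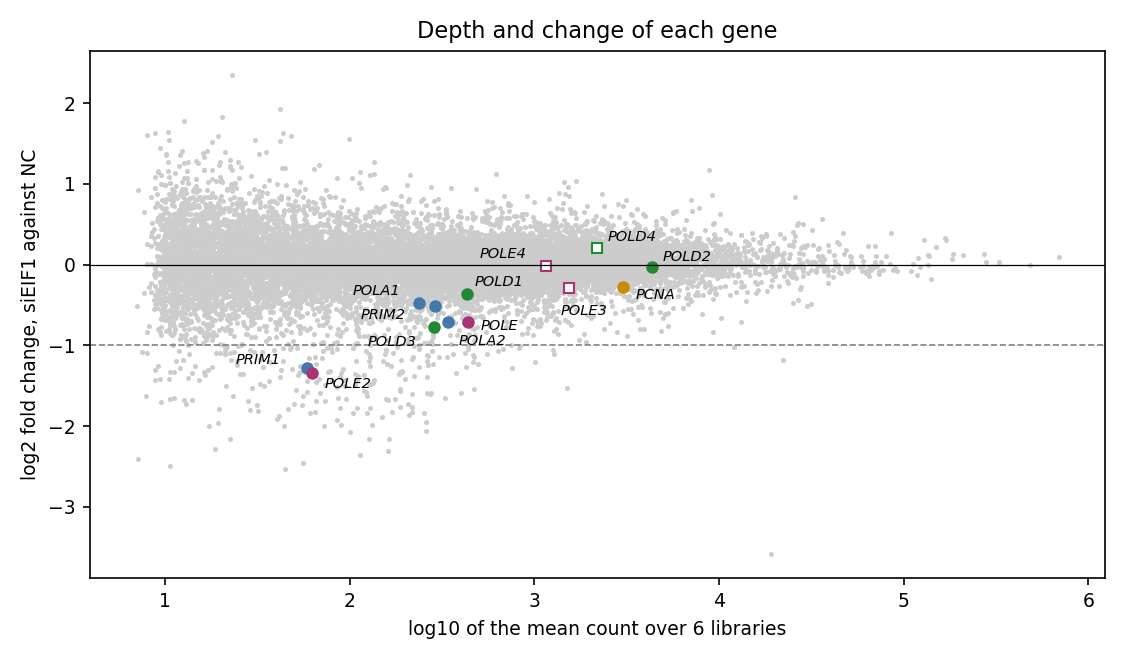
Log2 fold change (siEIF1 against NC) of all tested genes in grey against the log10 of their mean count over 6 libraries, with members as filled symbols and 3 further small subunits as open squares. The members with the largest falls, PRIM1 and POLE2, are also those with the fewest counts, and EIF1 is the grey point at the bottom.

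The members differed widely in level. In the NC group the order by mean FPKM was PCNA (67.0 ± 1.67, SD, n = 3), POLD2 (34.0 ± 0.65), POLD1 (2.79 ± 0.15), POLA2 (2.18 ± 0.11), POLD3 (1.88 ± 0.021), PRIM2 (1.73 ± 0.16), POLE (0.92 ± 0.012), POLE2 (0.88 ± 0.057), PRIM1 (0.84 ± 0.093) and POLA1 (0.51 ± 0.064). The libraries of POLD3 and PRIM2 overlapped, as did those of POLE with POLE2 and of POLE2 with PRIM1, so these neighbours did not differ beyond their spread. PCNA and POLD2 together made up 89.5% to 92.6% of the summed FPKM of the members in a library. That sum was 111.55 to 113.62 FPKM in the NC group and 93.42 to 95.90 FPKM in the siEIF1 group. In the siEIF1 group the bottom of the order was POLA1 (0.36 ± 0.036), PRIM1 (0.34 ± 0.095) and POLE2 (0.34 ± 0.090), which overlapped with each other. For 6 of the 10 members, the gene length that the FPKM values imply tracked the merged length of all GENCODE exons within 5%, after a factor common to most genes. For POLA2, PRIM1, POLD2 and POLE it did not, so the length behind their FPKM, and with it their place in this order, is uncertain. Per kilobase of the canonical transcript, POLD2 (95.6 ± 2.14 in the NC group) was above PCNA (90.6 ± 2.45) and PRIM2 (5.22 ± 0.52) and POLD1 (4.94 ± 0.27) came next, within their spread.

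**Figure D3:**
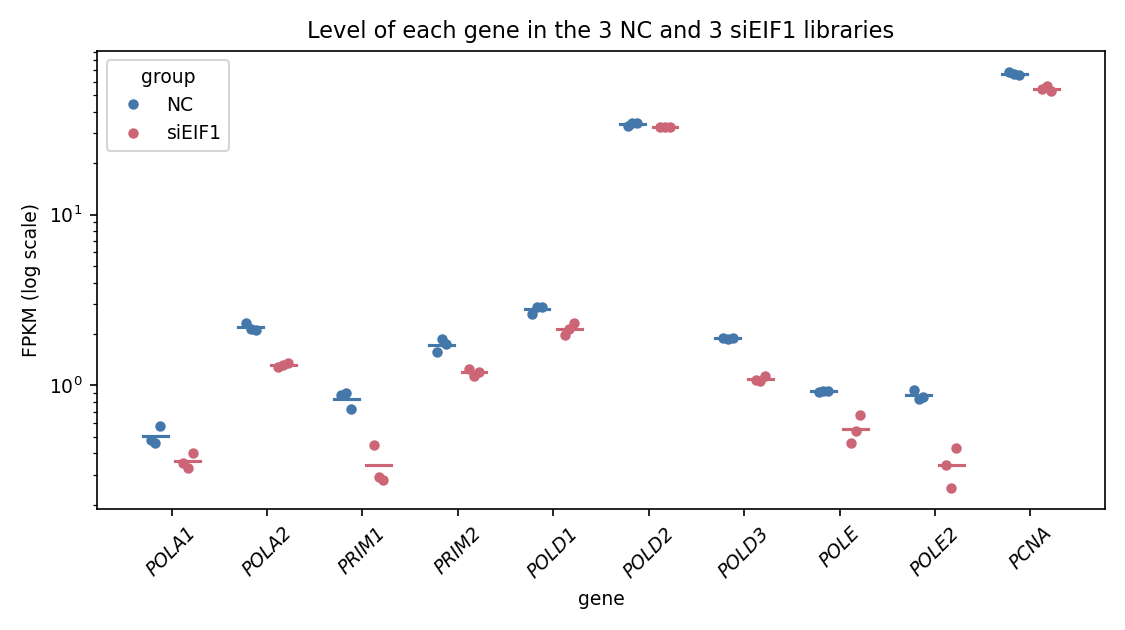
FPKM of each member in each of the 3 NC and 3 siEIF1 libraries on a log axis, grouped by complex, with horizontal bars at the group means. PCNA and POLD2 lie above 30 FPKM and the other 8 members below 3 FPKM, and the siEIF1 points lie below the NC points in each member.

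Whether subunits of a complex changed by the same amount was examined through 11 log2 ratios of counts in each library. The POLD3/POLD2 ratio was lower in the siEIF1 group by 0.74 (log2, SE 0.035), and the POLD3/POLD1 ratio by 0.41 (SE 0.067), whereas POLD2/POLD1 was higher by 0.33 (SE 0.072). POLE2 was lower relative to POLE by 0.64 (SE 0.21), and PRIM2 was higher relative to PRIM1 by 0.80 (SE 0.23). Between complexes, POLD1 was higher relative to POLE by 0.36 (SE 0.10). The groups did not overlap in these 6 ratios. With 3 against 3 libraries the two-sided exact permutation test cannot go below p = 0.1, the value each of them had (0.183 after Benjamini-Hochberg adjustment over the 11 ratios), so none of them could pass a threshold of 0.05. The other 5 ratios overlapped between the groups, and among them was the largest difference of the 11, PRIM1/POLA1 at -0.83 (SE 0.32, exact permutation p = 0.2). POLA1/POLE differed by 0.25 (SE 0.15), POLA2/POLA1 by -0.24 (SE 0.15), PCNA/POLD1 by 0.085 (SE 0.10) and PRIM2/POLA1 by -0.038 (SE 0.16). Within pairs of same-numbered libraries, 9 of the 11 ratios moved in the same direction in all 3 pairs, the 6 above and 3 of those that overlapped. PRIM1/POLA1 differed by -0.52, -1.15 and -0.83 in the 3 pairs, POLA2/POLA1 by -0.39, -0.22 and -0.097, and PCNA/POLD1 by 0.069, 0.19 and 2.5e-04. An exact sign-flip permutation test over 3 pairs cannot go below p = 0.25, the value each of these 9 had (0.306 after adjustment).

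**Figure D4:**
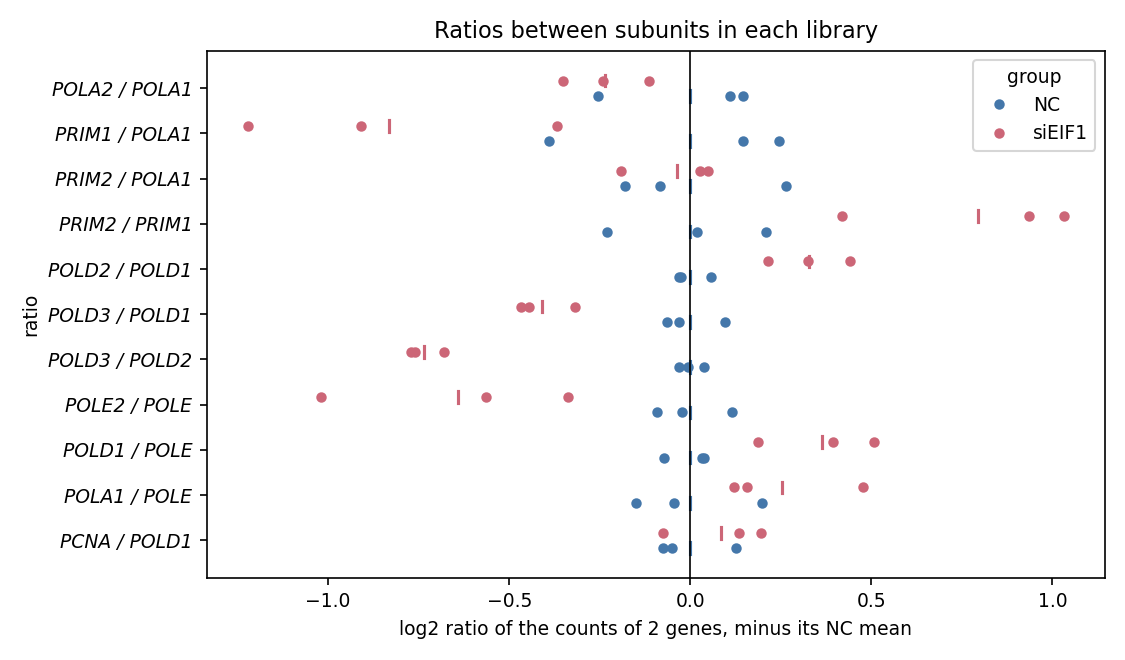
Log2 count ratio of 11 pairs of members in each library, shown as the difference from the NC mean of that ratio, with NC and siEIF1 libraries in separate colours and short vertical marks at the group means. The siEIF1 libraries are separate from the NC libraries in 6 pairs, among them POLD3/POLD2 with a difference of -0.74.

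Genes that work with these polymerases at the fork were also lower in the siEIF1 group, beside 10.4% of all tested genes that fell. Of the genes that load and unload PCNA, 8 of 8 tested fell (median log2 fold change -0.93), among them the clamp loader subunits RFC4 (-1.15), RFC3 (-1.07) and RFC2 (-0.66). CHTF8, also on this list, had too few counts to be tested. Of the helicase and polymerase epsilon loading factors, 15 of 15 fell (median -1.01), including the MCM helicase subunits MCM4 (-1.11), MCM5 (-1.03) and MCM7 (-0.69). PCNA itself, at -0.28, thus changed less than the median of its loaders, a difference that was not tested. Of the partners of polymerase alpha, 5 of 8 fell (median -0.56), led by the single-strand binding subunit RPA2 (-1.28), the fork anchor WDHD1 (-1.38) and MCM10 (-2.53), whereas RPA1 was at -0.076 and did not pass the test.

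Among the PCNA partners that mature Okazaki fragments, 5 of 6 tested fell (median -0.29), with the flap nuclease FEN1 at -1.11, the nuclease and helicase DNA2 at -0.98 and the ligase LIG1 at -0.29. Leaving out either NC replicate 1 or siEIF1 replicate 2 lowered this count to 3. A further listed gene, RNASEH2A, had too few counts to be tested. Of 11 genes that modify PCNA or act through it, 7 fell (median -0.26), including the ubiquitin ligase adaptor DTL (-1.86), the PCNA clamp-associated factor PCLAF (-1.06) and USP1 (-0.52), which removes ubiquitin from PCNA.

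Polymerases outside the replication fork mostly did not pass the test, as did 13303 of all 16749 tested genes. Of all tested genes, 10.4% fell and 10.2% rose. Of 12 translesion and repair polymerase genes, 2 fell, POLQ of microhomology-mediated end joining (-2.0) and PRIMPOL (-0.36), 1 rose, POLL of end joining (0.26), and the median was -0.035. Leaving out either NC replicate 1 or siEIF1 replicate 3 left 1 gene that fell. Of 5 genes of mitochondrial DNA replication, the helicase TWNK fell (-0.27) and the median was -0.061. Of 10 core subunits of RNA polymerase II, POLR2K fell (-0.40), and the median was 0.014. Cell cycle genes measured for comparison fell together: 23 of 27 other S phase genes (median -0.97) and 6 of 6 proliferation markers (median -1.57), including E2F1 (-1.84), CDK1 (-1.66) and TOP2A (-1.54). Of 6 reference genes, ACTB (0.39) and GAPDH (0.30) rose and HPRT1 fell (-0.21), with a median of 0.059. HPRT1 did not pass the test without siEIF1 replicate 2. All values in these lists are log2 fold changes of the siEIF1 against the NC group, called at an edgeR adjusted p under 0.05.

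**Figure D5:**
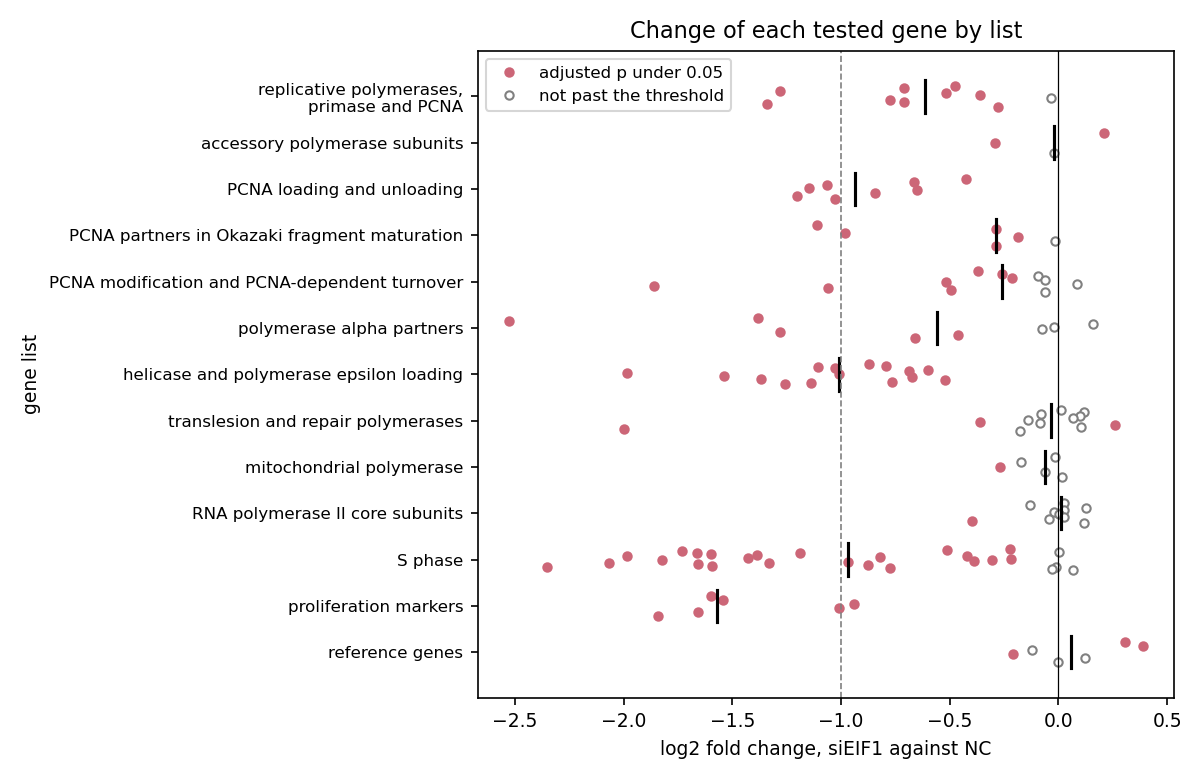
Log2 fold change of each tested gene in the members and the other gene lists, with filled points for an adjusted p under 0.05, open points for the rest and a vertical mark at the median of each list. The medians of the members (-0.61), PCNA loading (-0.93) and helicase loading (-1.01) lists lie left of those of the translesion (-0.035), mitochondrial (-0.061) and RNA polymerase II (0.014) lists.

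Across the 6 libraries, the correlation of each member with the mean of the other members ranged from r = 0.60 for POLD2 to r = 0.99 for POLD3. The genes outside the set with a pattern most like the members' mean were the recombination factor RAD54L (r = 0.999), JUN (0.998), CCDC120 (0.997), MCM7 (0.996) and DEPDC1 (0.996). These are descriptions over 6 libraries in 2 groups, where any gene with a steady group difference scores high: 489 of 13373 genes with a mean count of at least 50 had r above 0.95. Within a group, the members did not all deviate in the same direction. In siEIF1 replicate 3, POLE and POLE2 were above their group mean by 0.25 and 0.24 on the log2 scale, while PRIM1 was below it by 0.19.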

How the data were processed

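RNA-seq of ARPE-19 cells was analysed in 3 NC and 3 siEIF1 libraries, grouped by their titles. The libraries were strand-specific and were sequenced as paired 150 nt reads. The paper's methods and the sample records give different amounts of input RNA. The authors trimmed reads with FASTX-Toolkit, aligned them to GRCh38 with HISAT2 and deposited raw counts of uniquely aligned reads for each gene, together with FPKM. The counting program, its strand setting and the annotation release are not given in the sources used here. Each column matched a library, and 0 were left unmatched.

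Counts of 16749 genes that passed filterByExpr were scaled by TMM and fitted by quasi-likelihood in edgeR 4.0.16 (R 4.3.3). The p-values were adjusted by the Benjamini-Hochberg method. In a set of simulated counts with 200 genes changed by 1.5 on the log2 scale, edgeR recovered 184. It also made 16 false calls at an adjusted p under 0.05. Precision follows depth, with 26499929 to 31431479 counts per library, and standard errors cover the spread between these libraries. The alternatives were DESeq2 1.42.0, limma 3.58.1 on log2(FPKM + 1) and log2(FPKM + 0.1), other normalizations, filters and thresholds, a replicate block and leaving out each library. Subunit ratios were taken after adding 0.5 to each count and tested by exact permutation, enumerated in R. The deviations of same-numbered NC and siEIF1 libraries from their group means correlated at 0.152, 0.129 and 0.167. Those of differently numbered libraries correlated at -0.210 to 0.048. Deviations sum to 0 within a group, so these correlations constrain each other and cannot establish a pairing, which the labels do not give. The numbers were used as pairs only in the replicate block and the ratios within pairs. All other fits were unpaired. No library pair agreed within sampling noise.

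Loci, exons and transcripts came from GENCODE release 44 on GRCh38, matched by gene identifier, and shared sequence was counted in 75-base stretches of canonical transcripts. The levels per canonical transcript and the ratios within pairs were chosen after seeing the data. The members and gene lists were chosen with earlier results of these data known. Named are EIF1, all members, POLD4, POLE3 and POLE4, up to 3 genes with the smallest p-values per list plus any that a result turns on, and the 5 genes most like the members' mean. RPA1 was named after its value was seen, and RNASEH2A and CHTF8 because they were not tested. No gene of the S phase list is named.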

Additional observations from a re-analysis of the deposited data

How the results depend on the processing

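Of 140 values of the members' log2 fold changes under the alternatives, 137 kept their direction and their side of the threshold, 0 changed direction and 3 were no longer past it. All 3 were of POLA1: -0.15 with limma on log2(FPKM + 1) (adjusted p = 0.0620), -0.40 with limma on log2(FPKM + 0.1) (adjusted p = 0.0769) and -0.38 without NC replicate 3 (adjusted p = 0.0501 in edgeR). The number of members that fell was 8 or 9 under each alternative, 9 with DESeq2 and 9 with the replicate block. With that block 2128 of all genes fell in place of 1744, and 2 RNA polymerase II genes in place of 1. The block changed no call on a member and moved no other count by over 1.5 times. Taking the subunit ratios within pairs leaves each mean difference as it was by construction. With limma on log2(FPKM + 1), 0 members and 19 genes passed both limits, in place of 2 and 219, since the pseudocount shrinks changes of genes near 1 FPKM. The Okazaki fragment list had 3 genes that fell with limma under either pseudocount. Leaving out each library gave 3 to 5 genes for that list, 1 to 2 for the translesion list, 0 to 1 for the reference genes and 1124 to 1763 for all genes, lowest without siEIF1 replicate 2. At an adjusted p under 0.01, 975 genes fell. POLE4 ranged from -0.082 to 0.021 when each library was left out, and changed sign without siEIF1 replicate 3. Per canonical transcript length, the NC level of POLD2 over PCNA was 1.06 in place of 0.51, and that of PRIM2 over POLD3 was 1.55 in place of 0.92. Depth limits PRIM1 and POLE2 most, at fewer than 100 counts per library.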
